A study of Danio rerio with 18 samples.

Results

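Runx+ cells were set against kdrl+ cells from zebrafish embryos (strain AB) exposed to Lycorine, a plant alkaloid known to block protein synthesis. All embryos carried the transgenes Runx1+23:GFP and kdrl:DsRed2, the first driven by an enhancer of the runx1 gene and the second by the promoter of kdrl, a vascular endothelial growth factor receptor. Pools of embryos were treated for a day, between 2 and 3 days post fertilization (dpf), dissociated and sorted by colour, and RNA was amplified and hybridised to single-colour arrays. The groups were Lycorine Runx+, Lycorine kdrl+ and Lycorine negative cells (75 µM Lycorine in 1% DMSO), and DMSO Runx+, DMSO kdrl+ and DMSO negative cells (1% DMSO alone), with 3 arrays each. The comparison took the 3 Lycorine Runx+ and 3 Lycorine kdrl+ arrays, 6 of the 18 in the series, chosen by their labels alone. The labels call the Runx+ sort hematopoietic stem and progenitor cells (HSPC), the kdrl+ sort endothelial, and the negative sort all cell types. They do not say how cells carrying both colours were gated, and they call the replicates biological without saying whether these came from separate pools, so p-values measure the spread between these arrays.

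In zebrafish, the first blood stem cells bud from the floor of the dorsal aorta, where endothelial cells switch on runx1, gata2b and myb and lose their vascular identity. The emerging cells keep kdrl reporter protein for a time and then settle in the caudal hematopoietic tissue, a venous plexus whose endothelial cells surround them. An HSPC sort would therefore be described by itga2b, runx1, myb, gata2b, ptprc and gfi1aa, and an endothelial sort by kdrl, kdr, cdh5, tie1, etsrp and fli1.

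Levels are given as log2 intensity, so that a difference of 1 is a doubling, and each difference is Runx+ minus kdrl+ with its standard error. It was tested with limma on the 9 Lycorine arrays, with Benjamini-Hochberg adjustment over 19247 genes and a threshold of 0.05 on adjusted p. Gene levels correlated between replicates at 0.961 to 0.980 in Lycorine Runx+ cells, 0.975 to 0.982 in kdrl+ cells and 0.976 to 0.984 in negative cells. No 2 arrays were duplicates, since the highest correlation between any pair was 0.984. The number of arrays limits the precision, and the median standard error of a difference was 0.20.

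kdrl itself stood at 6.75, 6.36 and 6.91 in Runx+ cells, against 10.63, 10.95 and 10.94 in kdrl+ cells and 5.74, 6.18 and 6.66 in negative cells. The Runx+ and kdrl+ arrays did not overlap, and kdrl was lower in Runx+ cells by a difference of -4.17 ± 0.23 (SE; limma adjusted p = 1.10e-07). The other endothelial markers were also lower in Runx+ than in kdrl+ cells. The receptor gene kdr differed by -4.40, the receptor tyrosine kinase gene tie1 by -4.62, the junctional cadherin gene cdh5 by -3.91, and the ETS transcription factor genes etsrp and fli1 by -4.39 and -3.22. All 6 endothelial markers fell below the kdrl+ level past the threshold. The kdrl+ cells were sorted on a reporter driven by the kdrl promoter, so the call for kdrl is not independent of the sort.

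Set against kdrl+ cells, the HSPC markers did not bear out the label of the Runx+ sort. itga2b, the platelet integrin CD41 that marks thrombocytes and HSPC in zebrafish, stood at 4.91, 6.71 and 5.25 in Runx+ cells, against 5.04, 5.60 and 4.98 in kdrl+ cells and 4.38, 4.75 and 4.45 in negative cells. Replicate 2 was the highest array in each sort, the Runx+ and kdrl+ arrays overlapped, and the difference of 0.41 ± 0.37 did not pass (limma adjusted p = 0.455). Without Runx+ replicate 2 it was -0.13 (adjusted p = 0.733).

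The endogenous runx1 gene, the transcription factor whose enhancer drives the reporter, stood at 4.70, 4.98 and 4.72 in Runx+ cells, against 5.43, 5.69 and 5.48 in kdrl+ cells and 4.42, 4.85 and 5.004 in negative cells. Every Runx+ array lay below every kdrl+ array and within the negative range, and runx1 fell by 0.74 ± 0.19 (limma adjusted p = 0.00999). myb, a transcription factor gene of stem and progenitor cells, differed by -1.35 ± 0.22, gata2b, which acts upstream of runx1, by -0.88 ± 0.22, and ptprc, the leukocyte phosphatase CD45, by -1.94 ± 0.24, all past the threshold (limma adjusted p of 0.000719, 0.0106 and 9.81e-05). gfi1aa differed by -0.22 and did not pass. Of the 6 HSPC markers, 4 thus fell in Runx+ relative to kdrl+ cells and none rose. None of the 6 differed from negative cells past the threshold, with myb nearest at 0.68 ± 0.22 (limma adjusted p = 0.271). itga2b stood further above negative cells than myb did, with every Runx+ array above every negative array, but its spread was wider. The sort is therefore called Runx+ below, after its reporter. In these bulk sorts, fewer cells of a type and less RNA per cell cannot be told apart.

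**Figure D1:**
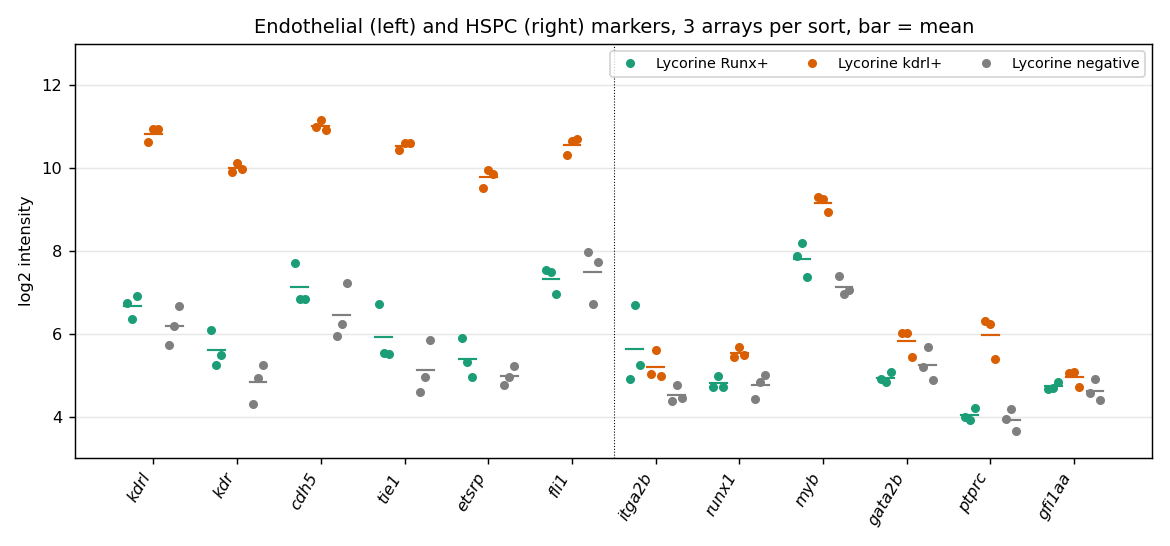
Log2 intensity (y axis) of 6 endothelial and 6 HSPC markers (x axis) on the Lycorine arrays, where each point is an array, each bar the mean of 3, and the colours are Runx+, kdrl+ and negative from left to right. Endothelial markers stand apart in kdrl+ cells, and runx1, myb, gata2b and ptprc also lie highest there.

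Across all genes, 5341 differed between Runx+ and kdrl+ cells (27.7% of 19247), with 3050 higher in Runx+ cells (15.8%) and 2291 lower (11.9%). That balance turned with the scaling, to 2604 higher and 2883 lower with each array centred on its median and 2769 higher and 2850 lower with cyclic loess, and on all 18 arrays to 1085 higher and 1370 lower. A difference of at least 1 was reached by 1351 of the higher and 1254 of the lower genes, together 13.5% of all genes. The 3 arrays of both sorts did not overlap for 7761 genes (40.3%), among them 5182 of those called, and the median difference of all genes was 0.06. Falls reached further than rises. The largest fall was -5.42 and the largest rise 2.82.

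Genes known from venous and lymphatic endothelium led the 10 largest falls. mrc1a, a scavenger receptor gene of venous and lymphatic endothelium, stood at 5.04, 4.51 and 3.91 in Runx+ cells, against 10.14, 9.64 and 9.96 in kdrl+ cells (-5.42 ± 0.31, limma adjusted p = 1.18e-07). f8, coagulation factor VIII, stood at 4.73, 4.51 and 4.37 in Runx+ cells, against 9.31, 10.49 and 10.01 in kdrl+ cells (-5.40 ± 0.27, limma adjusted p = 5.54e-08). The unnamed gene si:ch211-145b13.6 stood at 4.63, 4.01 and 3.84 in Runx+ cells, against 9.30, 9.002 and 8.90 in kdrl+ cells (-4.91 ± 0.21, limma adjusted p = 2.92e-08). In each, all Runx+ arrays lay in or near the range of the negative arrays and far below the kdrl+ arrays. The next were exoc3l2a (-4.86), calcrlb, an adrenomedullin-family receptor gene (-4.80), gpr182, an atypical chemokine receptor gene of sinusoidal endothelium (-4.76), stab1, a scavenger receptor gene (-4.74), lyve1a, a hyaluronan receptor gene of lymphatics (-4.72), CD93 (-4.69) and pcdh12, a vascular protocadherin gene (-4.65).

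The 10 largest rises were mostly lens crystallin and fast muscle genes, and they were less even between arrays. crygm2d17, a gamma crystallin gene, stood at 9.33, 9.98 and 9.62 in Runx+ cells, against 8.93, 4.23 and 7.32 in kdrl+ cells (2.82 ± 0.80, limma adjusted p = 0.0189). cryba2a, a beta crystallin gene, stood at 9.64, 10.29 and 9.88 in Runx+ cells, against 8.24, 5.50 and 7.65 in kdrl+ cells (2.81 ± 0.50, limma adjusted p = 0.00135). pvalb4, a parvalbumin gene of fast muscle, stood at 11.73, 10.86 and 10.19 in Runx+ cells, against 9.90, 6.38 and 8.32 in kdrl+ cells (2.73 ± 0.66, limma adjusted p = 0.00782). kdrl+ replicate 2 was the lowest array in all 3. Without it the differences were 1.52 for crygm2d17, 2.00 for cryba2a and 1.82 for pvalb4, each still past the threshold. crygm2d17 lost its call without Runx+ replicate 2 (adjusted p = 0.0578) and also without Runx+ replicate 3.

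The other large rises were crygm2d1 (2.72), crybb1 (2.62), the lens water channel gene mipb (2.51), zgc:112964 (2.51), the somatostatin gene sst2 (2.47), the fast muscle light chain gene myl10 (2.42) and cryba1b (2.41). myl10 was 1.48 without kdrl+ replicate 2, and did not pass without Runx+ replicate 1 (adjusted p = 0.0518). The gamma crystallin genes are near-identical copies, so their rows may share signal and are uncertain as single genes. In negative cells crygm2d17 stood at 9.50, 9.69 and 9.45, level with Runx+ cells (0.10 for Runx+ minus negative, limma adjusted p = 0.987), and kdrl+ minus negative was -2.72.

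**Figure D2:**
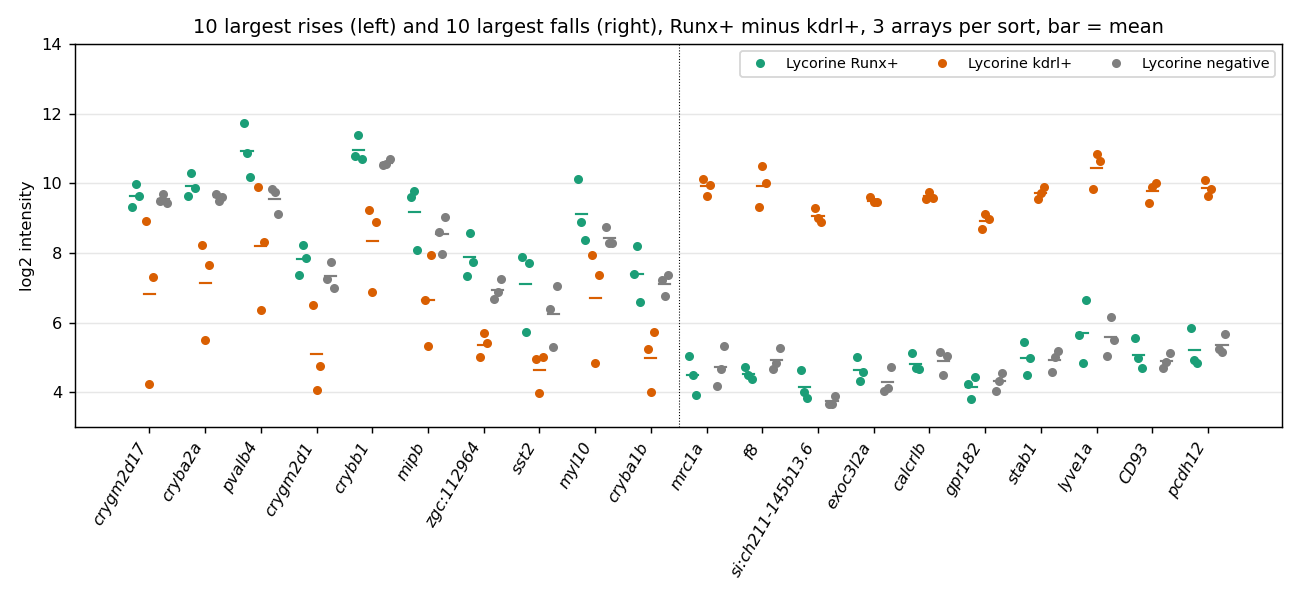
Log2 intensity (y axis) of the 10 genes with the largest rises and the 10 with the largest falls (x axis) on the Lycorine arrays, where each point is an array, each bar the mean of 3, and the colours are Runx+, kdrl+ and negative from left to right. The falls show kdrl+ arrays far above the other sorts, whereas for most of the rises the kdrl+ arrays are widely spread, with replicate 2 the lowest.

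Genes were then grouped into 39 lists by known role, with 1307 of 1466 list genes measured (89.2%). The lists were written with earlier results of these data known, so their counts are descriptive. The 27.7% of all genes called (15.8% higher and 11.9% lower) and the all-gene median of 0.06 are the background for every count that follows. Fitting all 18 arrays leaves each difference as it is but takes in the wider spread of the DMSO arrays, and the counts of 5 or more that it lowered by over 1.5 times are given for the tissue lists here and for the others with the processing alternatives.

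Endothelial genes made a block of falls. Of 25 measured endothelial receptor genes 22 fell and none rose, with a median of -3.03. ramp2, the partner of the adrenomedullin receptor (-4.22 ± 0.19), flt1, a decoy receptor of vascular endothelial growth factor (-4.00 ± 0.18), and adgrl4, an adhesion G protein-coupled receptor gene (-4.25 ± 0.21), were among those with the smallest p. Of 21 junction and surface genes 20 fell (median -3.84), including pecam1a (-4.52), the secreted vascular protein gene egfl7 (-4.41), RASIP1 (-4.39), myct1b (-4.32), ecscr (-4.07) and heg1 (-4.06), and 1 rose, mcama (0.88). Of 21 endothelial transcription factor genes 18 fell (median -1.91), led by fli1rs (-4.30), erg (-4.16), lmo2 (-3.35), sox18 (-3.23) and elk3 (-3.09), and 1 rose, zeb2b (0.60). mcama and zeb2b were named after their values were seen, and neither call held in every fit that left out 1 array.

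Venous, lymphatic and arterial genes fell too. Of 18 venous, lymphatic and scavenger genes 12 fell (median -1.82), with stab2 at -4.28, the lymphatic growth factor receptor gene flt4 at -4.01 and dab2 at -3.61 beside those above. Of 24 arterial Notch and ephrin genes 13 fell (median -0.70), among them the connexin gene gja5b (-2.78), the water channel gene aqp1a.1 (-2.72), the Notch ligand genes dll4 (-2.69) and jag2b (-1.91) and the receptor gene notch1b (-1.89). No gene of these 2 lists rose. The difference between the lists was not tested.

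Blood genes also stood lower in Runx+ than in kdrl+ cells. Of 21 HSPC transcription factor genes 13 fell and none rose (median -0.87). They included lmo2, which endothelium also uses, the myeloid factor gene spi1b (-2.02 ± 0.21), the lymphoid factor gene ikzf1 (-1.96 ± 0.20), runx3 (-1.93 ± 0.26), mecom (-1.75 ± 0.21) and gata2a (-1.66 ± 0.23). ikzf1 shows the pattern on single arrays, at 4.68, 4.48 and 4.40 in Runx+ cells, against 6.65, 6.75 and 6.04 in kdrl+ cells and 4.33, 4.63 and 4.53 in negative cells. Runx+ arrays lay among the negative arrays, and kdrl+ arrays stood above both.

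Leukocyte genes followed. Of 16 pan-leukocyte genes 15 fell (median -1.85), with the signalling phosphatase gene inpp5d at -3.49, the integrin gene itgb2 at -3.41 and the actin-binding protein genes lcp1 and coro1a at -2.85 and -2.82. The mean level of this list was 5.75, 6.12 and 5.80 on the Runx+ arrays, against 7.98, 7.72 and 7.53 on the kdrl+ arrays and 6.07, 5.97 and 5.88 on the negative arrays. Of 32 neutrophil and macrophage genes 18 fell and none rose (median -0.93). The macrophage receptor gene csf1rb fell by 3.85, the difference was -3.18 for the myeloperoxidase gene mpx and -2.20 for the neutrophil receptor gene csf3r. mpx stood at 6.08, 6.72 and 6.04 in Runx+ cells, against 9.51, 9.52 and 9.35 in kdrl+ cells and 7.16, 6.54 and 6.62 in negative cells. The kdrl+ arrays thus carried leukocyte markers as well as endothelial ones. What part leukocyte or endothelial expression had in the HSPC factor counts was not tested.

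Of 21 lymphoid genes 7 fell, among them the cytokine receptor genes il7r (-2.35) and il2rga (-2.14) and the homing receptor gene ccr9a (-2.49), and 2 rose. Those 2 were tox (1.15) and bcl11ba (0.92), transcription factor genes also active in neurons, named after their values were seen. Of 17 itga2b and thrombocyte genes 3 fell, the platelet signalling gene plek (-2.15), the clotting factor gene vwf (-1.53) and the adhesion gene selp (-0.95), and 1 rose, the fibronectin gene fn1b (1.26). That share of 23.5% was near the background.

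Genes of the HSPC niche divided. Of 23 niche adhesion and Kit genes 12 fell and 4 rose (median -0.88). The falls included the endothelial selectin gene sele (-4.19 ± 0.32), the integrin genes itga4 (-2.85 ± 0.18) and itgb1b (-1.70 ± 0.18), the junctional gene jam2a (-2.73 ± 0.17) and the stem cell factor receptor gene kita (-1.29 ± 0.18), and f11r.1, another junctional gene, rose (1.43 ± 0.21). Of 19 chemokine genes 8 fell and 2 rose, with the homing receptor genes cxcr4b at -2.66 and cxcr4a at -1.98, the scavenging receptor gene ackr3a at -1.84 and the ligand gene cxcl12b at -2.18.

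Inflammatory genes also went both ways. Of 29 such genes 9 fell and 5 rose. The matrix metalloprotease genes mmp13a and mmp9 differed by -3.07 and -2.45, the flagellin receptor gene tlr5b by -2.66, and the cytokine genes il34 and il11b by -1.49 and -1.73. The prostaglandin synthase gene ptgs2a rose by 1.67. Of 26 interferon-stimulated genes 5 fell (gbp1 at -1.39, irf7 at -1.44, isg15 at -1.27, trim25 at -1.22 and gbp2 at -0.73) and none rose. The share called, 19.2%, was below the 27.7% called in either direction but above the 11.9% of all genes that fell. Of 24 class I antigen presentation genes 4 fell, with b2m at -1.15, and mhc1lia rose (0.69). That share of 20.8%, counted in both directions, was below the 27.7% too.

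Genes of several non-vascular tissues made the block of rises. Of 32 skeletal muscle genes 29 rose and none fell (median 1.41). The myosin light chain gene myl1 rose by 2.01 ± 0.27, the myogenic factor gene myod1 by 1.97 ± 0.30, the calcium pump gene atp2a1 by 1.72 ± 0.27, the troponin gene tnnt3a by 1.64 ± 0.26 and the intermediate filament gene desma by 1.61 ± 0.27. The mean level of the list was 9.01, 8.54 and 7.61 on the Runx+ arrays, against 7.32, 6.74 and 6.88 on the kdrl+ arrays and 8.08, 7.56 and 7.84 on the negative arrays. Runx+ replicate 3 lay near the negative arrays and the other Runx+ arrays above it. Without Runx+ replicate 1, 19 muscle genes rose, and 19 on all 18 arrays.

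Of 38 neural genes 29 rose and none fell (median 1.17), including the tubulin-binding protein gene stmn1b (1.91 ± 0.30), the synaptic genes snap25b (1.43 ± 0.25), sypb (1.35 ± 0.23) and snap25a (1.26 ± 0.22), the neuronal RNA-binding protein gene elavl4 (1.35 ± 0.20) and the GABA synthesis gene gad1b (1.19 ± 0.20). The immediate early genes npas4a (1.53) and nr4a2a (1.33), both active in neurons, also rose. Their own list mostly went the other way, with 12 of 43 immediate early and flow genes lower and 4 higher. In negative cells elavl4 and stmn1b were no lower than in Runx+ cells, with Runx+ minus negative at -0.53 and -0.46 (neither past the threshold). On all 18 arrays 17 neural genes rose.

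Of 48 epidermal and epithelial genes 40 rose and 4 fell (median 1.38). The annexin genes anxa1c and anxa1b rose by 2.15 ± 0.23 and 1.99 ± 0.21, the secretory cell gene agr1 by 1.93 ± 0.20, the plakophilin gene pkp3a by 1.83 ± 0.22 and the epithelial factor gene elf3 by 1.66 ± 0.20. The 4 that fell were the keratin genes krt94 (-2.06), krt18a.1 (-1.66) and krt8 (-1.30) and the desmosomal gene dspa (-1.14). All but krt94 were named after their values were seen. On all 18 arrays 26 of these genes rose and 3 fell. Between Runx+ and negative cells none of the 48 passed the threshold (median 0.39). In kdrl+ minus negative 34 were lower and 4 higher (median -1.01). Of 25 ionocyte and pronephros genes 12 rose and none fell, with the sodium pump subunit gene atp1b1b at 1.63, the kidney and ear factor gene pax2a at 1.25 and the ionocyte factor gene foxi3b at 1.22. On all 18 arrays 5 rose. For this list Runx+ minus negative had no call (median 0.12), and kdrl+ minus negative had 10 lower and none higher (median -0.56).

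Of 41 mesenchyme and cartilage genes 15 rose and 2 fell (median 0.83), led by the collagen genes col1a1b (1.54), col11a1a (1.45) and col1a1a (1.17), with the smooth muscle myosin gene myh11a (-1.09) and snai1a (-1.02) falling. Only 6 rose without Runx+ replicate 1, and 7 on all 18 arrays. The list's median of Runx+ minus negative was -0.69 and that of the neural list -0.28, with no member of either past the threshold. Of 42 liver, pancreas and gut genes 9 rose and 2 fell (5 rose without Runx+ replicate 1, and 1 on all 18 arrays). The trypsinogen gene prss1 rose by 1.71, whereas the carboxypeptidase genes cpb1 and cpa5 fell by 1.98 and 1.65. Of 24 neural crest and pigment genes 5 rose and 1 fell, and only 1 rose without kdrl+ replicate 2 and none on all 18 arrays. The shares called, 26.2% for the liver, pancreas and gut list and 25% for the neural crest and pigment list, were near the background.

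**Figure D3:**
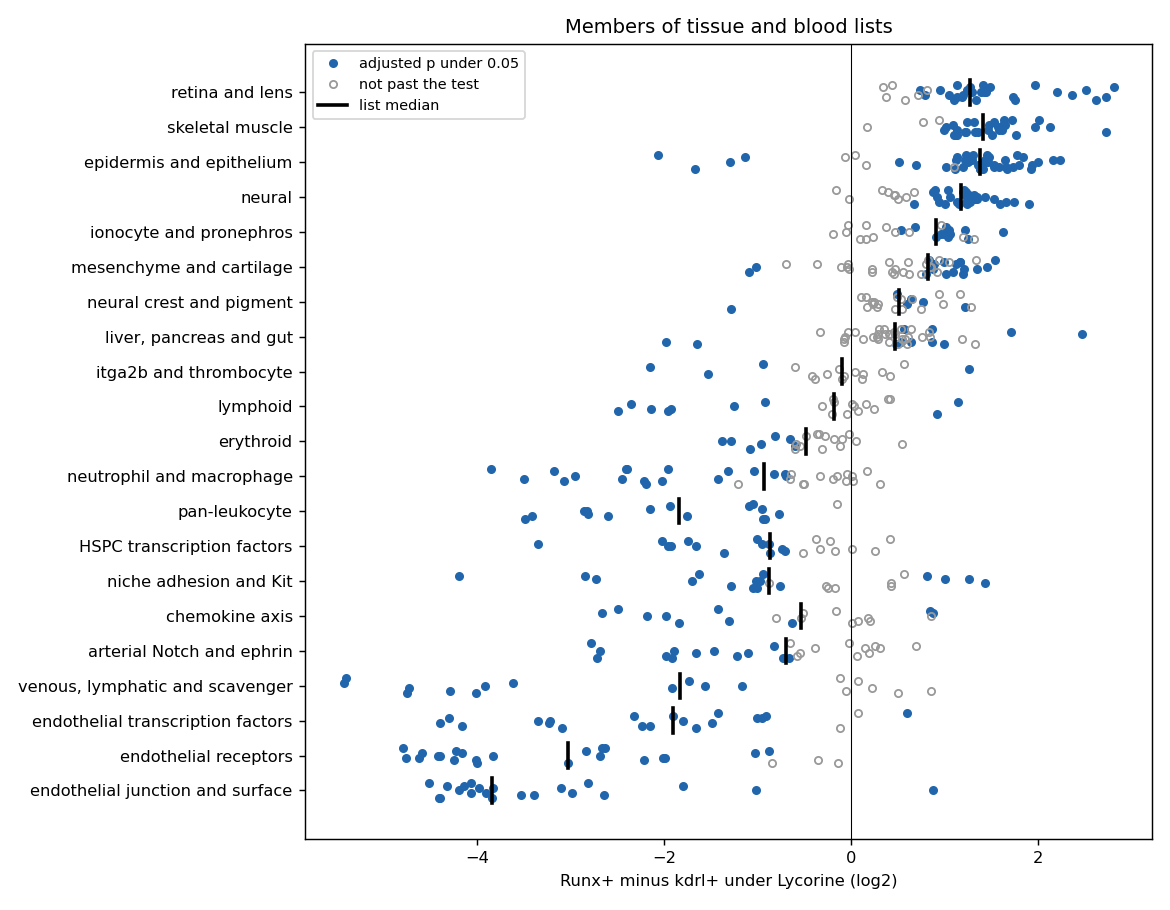
Runx+ minus kdrl+ under Lycorine (x axis, log2) for each measured member of 21 tissue and blood lists (y axis), with filled points past the threshold, open points not past it and black bars the list medians. Retina, muscle, epidermal and neural lists lie to the right of 0, and endothelial and pan-leukocyte lists to the left.

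Of 33 retina and lens genes 27 rose and none fell (median 1.27), but none of the 27 calls held on all 18 arrays. All 12 lens genes rose over kdrl+ cells (median 2.09), yet their median against negative cells was 0.35 with none past the threshold, and kdrl+ cells had 10 of the 12 below the negative level past the threshold (median -1.83 for kdrl+ minus negative). Among 49 crystallin genes on the array 29 rose and 1 fell. Of 21 photoreceptor and pigment epithelium genes 15 rose over kdrl+ cells (median 1.13). Their median over negative cells was 1.04 with 2 past the threshold, and that of kdrl+ minus negative was -0.08 with none lower past the threshold. The difference between lens and photoreceptor genes was not tested. The blue cone opsin gene opn1sw2 stood at 11.18, 11.05 and 11.42 in Runx+ cells, against 10.03, 9.69 and 10.39 in kdrl+ cells and 10.24, 9.81 and 10.49 in negative cells. The cone transducin subunit gene gngt2a (1.41 ± 0.24) and the calcium sensor gene rcvrn2 (1.13 ± 0.20) ran alike.

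Between Runx+ and negative cells few genes passed the threshold. Only 33 genes differed between them (0.171%), 26 higher in Runx+ cells (0.135%) and 7 lower (0.0364%), against 4640 between kdrl+ and negative cells (24.1%), of which 2027 were higher in kdrl+ cells (10.5%) and 2613 lower (13.6%). With median centring the kdrl+ split turned to 2565 higher and 2231 lower, with cyclic loess to 2549 and 2465, and on all 18 arrays to 1263 and 1229. Both comparisons share the negative arrays. At an unadjusted p under 0.05, 1955 genes differed between Runx+ and negative cells (10.2%) and 6367 between kdrl+ and negative cells (33.1%). A gene without a call is therefore not shown to be alike in Runx+ and negative cells. The count of 33 rested on single arrays. Its split was 28 higher and 13 lower with cyclic loess, and no gene was higher without Runx+ replicate 1, without Runx+ replicate 2, without negative replicate 1 or on all 18 arrays. Without negative replicate 2, 3 genes were higher and 18 lower. The total was 4, 5 and 11 without Runx+ replicate 1, 2 or 3, 89 and 17 without kdrl+ replicate 2 or 3, and 3, 21 and 16 without negative replicate 1, 2 or 3.

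Of these, 23 genes were higher in Runx+ cells than in both other sorts, cone photoreceptor genes among them. pde6c, the catalytic subunit of the cone phosphodiesterase, stood at 8.63, 8.29 and 8.98 in Runx+ cells, against 7.71, 6.51 and 7.37 in kdrl+ cells and 6.94, 6.64 and 7.22 in negative cells. Every Runx+ array lay above every other array, by 1.44 ± 0.29 over kdrl+ and 1.70 ± 0.29 over negative cells (limma adjusted p of 0.00256 and 0.0437). grk7a, the cone opsin kinase, stood at 7.62, 7.46 and 7.63 in Runx+ cells, against 6.52, 5.55 and 6.22 in kdrl+ cells and 5.65, 5.81 and 6.49 in negative cells. gnb3b, a cone transducin subunit gene, was higher by 1.40 over kdrl+ and 1.60 over negative cells, pdcb, a phosducin gene, by 1.36 and 1.42, and slc24a2, a cone calcium exchanger gene, by 1.28 and 1.496.

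The transporter genes slc1a2a and slc17a7b, which handle glutamate, were higher by 1.57 and 1.498 over kdrl+ cells and by 1.62 and 1.52 over negative cells. The synaptic vesicle gene sv2ba was higher by 1.35 and 1.38. Outside the retina, myhz1.1, a fast myosin heavy chain gene with near-identical neighbours, was higher by 1.65 and 1.93, CD164L2 by 1.95 and 1.39, mala.2 by 2.12 and 1.23, and nfil3-6, a clock-linked transcription factor gene, by 0.79 and 1.63. mala.2 and nfil3-6 were named after their values were seen. CD164L2 stood at 7.02, 7.23 and 6.92 in Runx+ cells, against 4.82, 5.17 and 5.33 in kdrl+ cells and 5.73, 5.72 and 5.55 in negative cells. Calls against negative cells were not stable, for the photoreceptor genes or for the others named here. pde6c, slc1a2a, sv2ba and mala.2 passed in 2 of 9 fits that each left out 1 array. grk7a and myhz1.1 passed in 3, slc17a7b in 4, and CD164L2 and nfil3-6 in 6.

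Of the 7 genes lower in Runx+ than in negative cells, 6 belonged to the erythroid list, and the other was hemgn, a gene of blood cell precursors. The embryonic globin gene hbbe2 stood at 8.45, 8.98 and 8.11 in Runx+ cells, against 9.84, 9.51 and 10.04 in kdrl+ cells and 11.33, 11.47 and 11.30 in negative cells. The 3 sorts did not overlap, and hbbe2 fell by 2.85 ± 0.22 against negative (limma adjusted p = 0.000272) and by 1.28 ± 0.22 against kdrl+ cells (limma adjusted p = 0.00111). hbae3, an embryonic alpha globin gene, fell by 2.14 against negative and by 0.97 against kdrl+ cells. alas2, the first enzyme of erythroid heme synthesis, fell by 2.02 against negative cells, and hemgn, hbae1.1, nt5c2l1 and epb41b by 1.55, 1.38, 1.27 and 1.17. hbbe2, hbae3 and alas2 passed in all 9 fits that left out 1 array. On all 18 arrays only 2 genes were lower in Runx+ than in negative cells, so not all of these kept their call. Against kdrl+ cells, 7 of 21 erythroid genes fell and none rose (median -0.48), and 2 fell on all 18 arrays. Globin genes are near-identical copies and their rows may share signal.

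**Figure D4:**
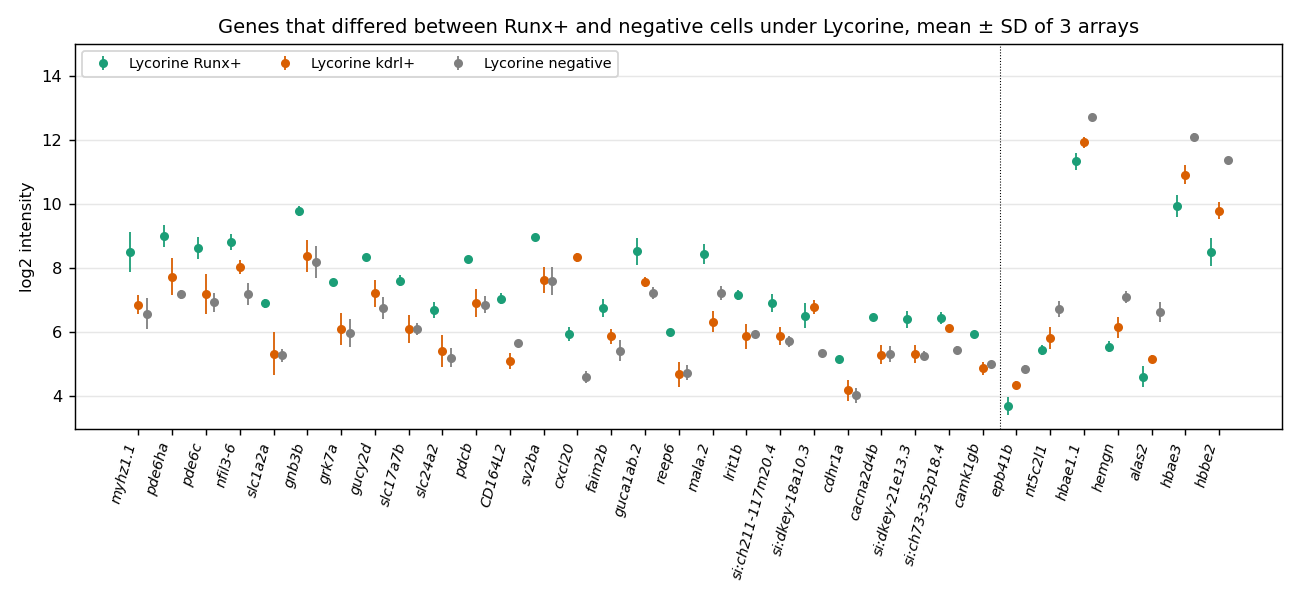
Log2 intensity (y axis, mean ± SD of 3 arrays) of the 33 genes (x axis) that differed between Runx+ and negative cells under Lycorine, with Runx+, kdrl+ and negative cells from left to right within each gene. In 26 genes Runx+ cells lie above negative cells, and in the last 7, of which 6 belong to the erythroid list, below them.

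Lists tied to protein synthesis, which bear on the compound, had few members that differed between the sorts, and lists tied to stress had more. None of 70 cytosolic ribosomal protein genes passed (median -0.13). Of 73 ribosome biogenesis genes 5 fell (nop2 at -0.73 and utp3 at -1.01 among them), and none did without kdrl+ replicate 1. Of 57 translation factor genes 2 rose (eef1a1a at 0.92 and pabpc1b at 0.63) and 2 fell (eif1axa at -0.77 and eif3jb at -0.63), and none fell without kdrl+ replicate 2. Of 37 integrated stress response genes 3 rose and 6 fell, with the cystine transporter gene slc7a11 at -1.39 (3 fell without kdrl+ replicate 2). Of 37 chaperone genes hsp90aa1.1, a muscle chaperone gene, rose by 1.497 and 4 fell, with the collagen chaperone gene serpinh1a at -1.25 (2 fell without Runx+ replicate 1). All 5 shares lay under the 27.7% of all genes, but that of the integrated stress response list, 24.3%, was near it.

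Of 30 p53 target genes 11 fell and none rose (36.7%). plk2b, a kinase gene, stood at 7.26, 7.45 and 6.77 in Runx+ cells, against 10.28, 10.48 and 10.63 in kdrl+ cells and 6.85, 6.80 and 7.09 in negative cells. Its arrays did not overlap, and it fell by 3.30 ± 0.20 (limma adjusted p = 1.82e-07). The sestrin genes sesn3 and sesn1 fell by 1.92 and 1.12, and the apoptosis genes bida and bbc3 by 1.36 and 1.02. Few proliferation genes passed. Of 50 DNA replication genes 6 fell and 1 rose (pole2, 0.74), and of 46 mitosis genes 4 fell, with CENPF at -1.22. Most lay below 0, namely 39 of the replication and 43 of the mitosis genes. The counts turned with the scaling, and with median centring 13 replication and 12 mitosis genes fell. Without kdrl+ replicate 1 a single replication gene fell, and without kdrl+ replicate 2 a single mitosis gene fell.

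Of 41 hypoxia and glycolysis genes 10 rose, among them ndrg1b (1.43), the muscle pyruvate kinase gene pkmb (1.40) and the aldolase gene aldocb (1.14), and 2 fell, the glucose transporter gene slc2a1a (-2.57) and igfbp1a (-2.27). Only 4 rose without kdrl+ replicate 2, and the share called, 29.3%, was near the background. Of 41 xenobiotic and Nrf2 genes 11 fell and 5 rose, with the drug efflux pump genes abcb4 at -2.92 and abcb5 at 1.99 in opposite directions and the aryl hydrocarbon receptor gene ahr2 at -2.02. Of 43 immediate early and flow genes 12 fell and 4 rose, with the shear-responsive factor genes klf2a and klf2b at -2.23 and -1.49 and the phosphatase gene dusp5 at -2.34.

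Of 30 sterol synthesis genes 8 rose, with the rate-limiting enzyme gene hmgcra at 1.15 (3 rose without kdrl+ replicate 2). Of 38 circadian genes 9 rose, with the melatonin synthesis gene aanat2 at 0.94 (5 rose without Runx+ replicate 2). Of 39 proteasome genes 3 fell, led by the interferon-induced activator subunit genes psme1 (-2.45) and psme2 (-1.001). Of 79 oxidative phosphorylation genes 4 rose, ndufa4b most (0.99), and 1 without Runx+ replicate 1. The shares called were 26.7% for sterol and 23.7% for circadian genes, near the background of 27.7% called in either direction. All calls of these 2 lists were rises, and both shares lay above the 15.8% of all genes that rose. For proteasome and oxidative phosphorylation genes the shares called were 7.69% and 5.06%, below the 27.7%.

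Whether Lycorine changed the difference between the sorts was tested on all 18 arrays, as Runx+ minus kdrl+ under Lycorine minus the same in DMSO. None of 19247 genes passed (0%, lowest limma adjusted p = 0.871), and 852 had an unadjusted p under 0.05 (4.43%). The median standard error of this contrast was 0.38, and the root mean square SD within groups was 0.327 in Lycorine Runx+ and 0.273 in Lycorine kdrl+ cells, against 0.540 in DMSO Runx+ and 0.500 in DMSO kdrl+ cells. A gene without a call is therefore not shown to be alike in both treatments.

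The differences themselves ran together. Across genes, which are not independent replicates, the difference under Lycorine correlated with that in DMSO at 0.797, with no arrays in common. Of the 5341 genes called under Lycorine 4979 had the same direction in DMSO (93.2%), against 71.0% of all genes. Endothelial junction and surface genes had a median of -3.84 under Lycorine and -3.06 in DMSO, and endothelial receptor genes -3.03 under Lycorine and -2.58 in DMSO. Epidermal genes had a median of 1.38 under Lycorine and 1.84 in DMSO, and mesenchyme genes 0.83 under Lycorine and 0.31 in DMSO. No member of any of these lists passed the test of the difference between treatments.

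The smallest p belonged to sh3tc2, which differed by -2.97 under Lycorine and by -0.92 in DMSO (-2.05 ± 0.40, limma adjusted p = 0.871). The class I gene mhc1haa followed, with 0.42 under Lycorine and 2.04 in DMSO (-1.61 ± 0.32, limma adjusted p = 0.871). Both were named after their values were seen. Of the markers, kdrl differed by -4.17 under Lycorine and -3.25 in DMSO, runx1 by -0.74 and -0.58, and itga2b by 0.41 and 1.25. In DMSO runx1 stood at 5.22, 5.44 and 5.09 in Runx+ cells, against 5.56, 5.89 and 6.02 in kdrl+ cells, and that difference alone was not tested.

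**Figure D5:**
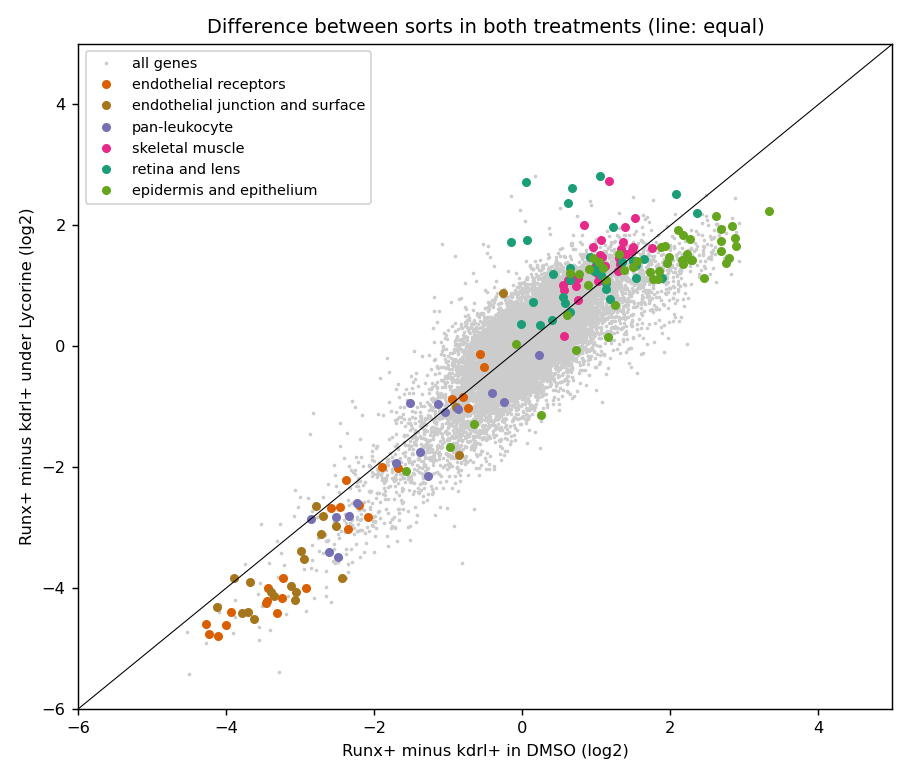
Runx+ minus kdrl+ (log2) under Lycorine (y axis) against the same in DMSO (x axis) for all genes in grey and 6 lists in colour, where the line marks equal differences. Endothelial genes lie at the lower left mostly below the line, and epidermal genes at the upper right mostly below it.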

How the data were processed

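The deposited table holds log2 intensities for 65528 array rows on 18 arrays. Per the submitters' processing notes the authors used oligo, RMA and limma. Their versions are not stated there. RMA forces arrays to a common distribution, so shifts shared by all genes are not visible. Of the rows, 20806 had 1 gene symbol, 855 several and 43867 none. Each of 19247 genes was represented by its brightest row on average, and 20323 rows were named through Entrez identifiers. No column was left unmapped.

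Groups came from the labels. Contrasts of group means were fitted with limma 3.58.1 in R 4.3.3 (lmFit, eBayes, 2-sided) on the 9 Lycorine arrays, or on all 18 for the difference between treatments. On simulated data for Runx+ minus kdrl+ under Lycorine, 200 of 19247 genes were changed. Of these, 38% of genes changed by 1 and 96% of genes changed by 2 were recovered. Far more genes were called on the real arrays, which eases the Benjamini-Hochberg threshold. These rates therefore do not carry over to the comparison itself. Figures used Python 3.11.15 and matplotlib 3.10.9.

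Named genes were the markers, the 10 largest rises and falls with arrays that did not overlap, the 10 genes highest above both other sorts, and up to 6 members per list with the smallest p. Members and lists were chosen with earlier results of these data known. Same-numbered arrays deviated together in kdrl+ and negative cells (correlations of 0.236, 0.219 and 0.425) but not in Runx+ and kdrl+ cells (0.016, -0.006 and -0.230). In Runx+ and negative cells they gave 0.327, -0.148 and -0.360, and arrays of unlike number there reached 0.409. Whether the numbers mark shared pools therefore stays unknown. Alternatives changed the normalization, filter, weights, block, arrays fitted and the replicates left out. No reference sequence was used.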

Additional observations from a re-analysis of the deposited data

Results flagged for a closer look

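Rows of the array with no gene symbol were outside every comparison above. Fitted alone for Runx+ minus kdrl+ under Lycorine, 3678 of 43867 such rows passed the threshold (8.38%), 1540 higher and 2138 lower in Runx+ cells, with differences between -5.74 and 2.82.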

How the results depend on the processing

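The count of genes that differed between Runx+ and kdrl+ cells was 5341, and 3195 with dim genes left out (fewer genes tested) and 2455 on all 18 arrays. It ranged over 3899 to 5361 with 1 replicate left out. The Runx+ against negative count of 33 was 91 with median centring, 253 with array weights, 2 on all 18 arrays and 3 to 89 with 1 replicate left out. The kdrl+ against negative count of 4640 was 2826 with dim genes left out, 2492 on all 18 arrays and 3369 to 5237 with 1 replicate left out. With the replicate number as a block the counts were 5298, 148 and 4561, and 0 for the difference between treatments. That difference gave 0 to 5 genes with 1 replicate left out, the 5 without DMSO kdrl+ replicate 3. The cause of these shifts was not tested.

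Of 4185 comparisons of a named gene with an alternative, 3926 kept direction and side of the threshold, 258 lost the call and 1 changed sign (itga2b, -0.13 without Lycorine Runx+ replicate 2; leaving out 1 replicate at a time gave -0.13 to 0.77). Most named genes were chosen for a small p or a large difference in the main fit, and most alternatives share its arrays. The number kept is therefore no measure of how stable other calls are. Of 1404 comparisons of a list's count with an alternative, 155 moved by over 1.5 times. On all 18 arrays, besides the lists above, neutrophil and macrophage genes that fell numbered 12, niche genes 7, chemokine genes 5, inflammatory genes 5, p53 targets 5, xenobiotic genes 5 and immediate early genes 7. No DNA replication, ribosome biogenesis or stress response gene fell, 1 mitosis gene fell, and 1 hypoxia, 1 sterol, 1 xenobiotic, 2 inflammatory and 4 circadian genes rose. On those arrays 7 of the 10 largest rises lost their call, with adjusted p of 0.175 for crygm2d17.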
